A study of Drosophila melanogaster with 2 samples.

Results

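Of the 3033 regions of the Drosophila melanogaster genome that passed the authors' reproducibility threshold in a ChIP-seq experiment on fu2-GFP, 390 (12.9%, exact 95% interval 11.7 to 14.1) lay deep inside genes. They were chosen by position alone. The summit, the base of strongest signal that the authors give for each region, lay within a gene but in no exon of the Ensembl annotation, and the nearest annotated transcript start was more than 2000 bp away. They are called distal intronic peaks here, and they were 32.4% of the 1204 peaks with an intronic summit, the other 814 being within 2000 bp of a start. ChIP-seq (chromatin immunoprecipitation followed by sequencing) recovers DNA fragments held by a protein, here with an antibody against GFP. The chromatin came from a transgenic fly line with a C-terminal GFP on fu2, a name listed for prg, a zinc finger gene. The single group, fu2-GFP, was whole embryos of 0 to 24 h with the sexes pooled, and its 2 biological replicates carry the numbers 2 and 3. All embryos carry the transgene, the line has 1 donor identifier in the labels, and a sample without the fusion or of input chromatin was not analysed here. Embryos of this age range hold many cell types and stages, so a region bound in few cells and one bound weakly in all cells cannot be told apart.

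The authors ranked regions by a signal value of their own and passed 30000 regions per replicate, and 30000 regions called on both replicates together (the pooled list), to the irreproducible discovery rate (IDR) step. The 3033 IDR peaks are the pooled regions with a signal value of 62.5 or more. Every listed region lay on a main chromosome arm. Read counts are not part of the lists and the depth is therefore unknown. Intervals are exact 95% intervals that cover counting over regions only, and per-replicate values come from the 3033 strongest regions of each replicate's own list. With 1 group there is no contrast to test, so differences are given with these intervals and replicate values and without p-values.

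Introns of flies, above all long first introns, are known to hold enhancers, short stretches of DNA whose bound factors set when and where a gene is transcribed. Proteins held at such sites are seen far from the transcript start, while factors of the basal promoter machinery are seen close to it. Genes with long introns in the fly are mostly developmental regulators, signalling genes and neuronal genes, whereas housekeeping genes are short. A ChIP-seq peak in an intron shows where the tagged protein or its complex was recovered, not which gene responds.

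The sequences at the summits of 6 of the 7 strongest distal intronic peaks are shown because these sites rank high in both replicates without a start nearby. Each is the plus strand of dm6 from 50 bp before to 50 bp after the summit, read from the NCBI RefSeq copy of Release 6, and capitals mark matches to 1 of 22 consensus words (below). The word is a Pho core at Raf, an AP-1 site at Pits, and a GATA site and a Runt site at mnb. None of the words matched at CG32486, Tlk and Mi-2.
CG32486, chr3L:3060724-3060824: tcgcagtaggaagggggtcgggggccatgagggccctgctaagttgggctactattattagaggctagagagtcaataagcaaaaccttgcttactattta
Tlk, chrX:3742186-3742286: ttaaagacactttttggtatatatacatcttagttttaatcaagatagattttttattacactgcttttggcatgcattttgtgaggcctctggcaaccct
Raf, chrX:2297682-2297782: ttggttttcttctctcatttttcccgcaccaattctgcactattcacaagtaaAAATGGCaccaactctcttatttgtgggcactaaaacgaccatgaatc
Pits, chrX:12579667-12579767: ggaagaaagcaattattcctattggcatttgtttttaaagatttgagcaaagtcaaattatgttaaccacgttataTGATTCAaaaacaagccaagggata
Mi-2, chr3L:19903205-19903305: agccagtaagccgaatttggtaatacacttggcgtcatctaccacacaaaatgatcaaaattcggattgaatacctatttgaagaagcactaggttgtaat
mnb, chrX:17880403-17880503: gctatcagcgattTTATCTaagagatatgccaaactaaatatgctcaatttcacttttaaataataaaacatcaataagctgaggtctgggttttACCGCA

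The strongest distal intronic peak lay in the first intron of CG32486, on 3L at 3060641 to 3060947, 5695 bp from the nearest start. It had a signal value of 553, rank 37 in replicate 2 and rank 43 in replicate 3. Next came Tlk, the gene of the Tousled-like kinase that acts in chromatin assembly, with 528 on X at 3742065 to 3742384, and rank 70 in replicate 2 and 35 in replicate 3. A peak in the second intron of Raf (FBgn0003079), the kinase between Ras and MEK, had 469.6 on X at 2297555 to 2297875 and ranks of 54 and 63. Pits, whose product is named for its contact with Ttk69 and Sin3A, held a peak of 328 on X in its first intron. Both replicates placed these 4 peaks in their first 144 regions.

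The 25 strongest distal intronic peaks lay in 22 genes. The nuclear receptor gene Hr3 held 1 of 304 in its first intron on 2R at 10219932 to 10220229, 7914 bp from a start. The chromatin remodeller gene Mi-2 (293), the gene of the DYRK kinase minibrain, mnb (281), CG12769 (278) and the histone methyltransferase gene trx (269) followed. Further signal values were 266 in Raf, 259 in the corepressor gene Gug, 256 in upSET, 231 in the Notch coactivator gene mam, 223 in the inhibitory SMAD gene Dad, 222 in the nuclear receptor gene Hr4 and 222 in the H3 kinase gene JIL-1. The list closed with Lrch, CG34417, CG3764, the Dot1 methyltransferase gene gpp, the adhesion gene kirre, the corepressor gene Smr, the TORC1 effector gene REPTOR and further peaks of Raf and Hr4, with signal values between 204.7 and 220.0. No peak among the 25 ranked worse than 568 in replicate 2 or 463 in replicate 3. The summit in Hr3 also lay within CG12912 and CG46321, and that in Mi-2 within Su(Tpl), so those host names rest on the rule for hosts (below).

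Distal intronic peaks were somewhat weaker than the other IDR peaks. Their signal values ran from 62.6 to 553 with a median of 92.1, and those of the other 2643 IDR peaks from 62.5 to 1729 with a median of 98.5. Only 3 of the 390 were among the 100 strongest IDR peaks, 93 were among the strongest 1000 and 166 were above the median of all IDR peaks, 97.2. Their share of all IDR peaks was 12.9%. The median was 102.7 in intronic peaks within 2000 bp of a start and 86.7 in intergenic ones more than 500 bp from a start. The median rank was 1788 in replicate 2 (37 to 29512) and 1621 in replicate 3 (35 to 6752). Among the 390, signal values in the replicates had a Spearman correlation of 0.66, a description over regions that share both libraries. The lowest signal values were 62.7 at the BMP pathway gene shn, 62.7 at the autophagy kinase gene Atg1 and 62.6 at CG8034, and just under the threshold stood Pdp1 (62.5), E2f1 (62.3) and Pgant5 (62.2).

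Each of the 390 had a listed region in both replicates. The IDR threshold rests on agreement between these same replicates, so this and the overlaps that follow are partly set by the selection. Of them 292 (74.9%, 70.3 to 79.1) overlapped one of the 3033 strongest regions of both replicates by at least 1 bp, against 2058 of the 2643 other peaks (77.9%, 76.2 to 79.4). One of the strongest regions of replicate 2 was overlapped by 324 and one of replicate 3 by 352, and 6 overlapped none in either. The widest split was at the corepressor gene sbb, where a peak of 76.8 ranked 29512 in replicate 2 and 1388 in replicate 3, and at the insulin receptor gene InR, with 22383 in replicate 2 and 967 in replicate 3.

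**Figure D1:**
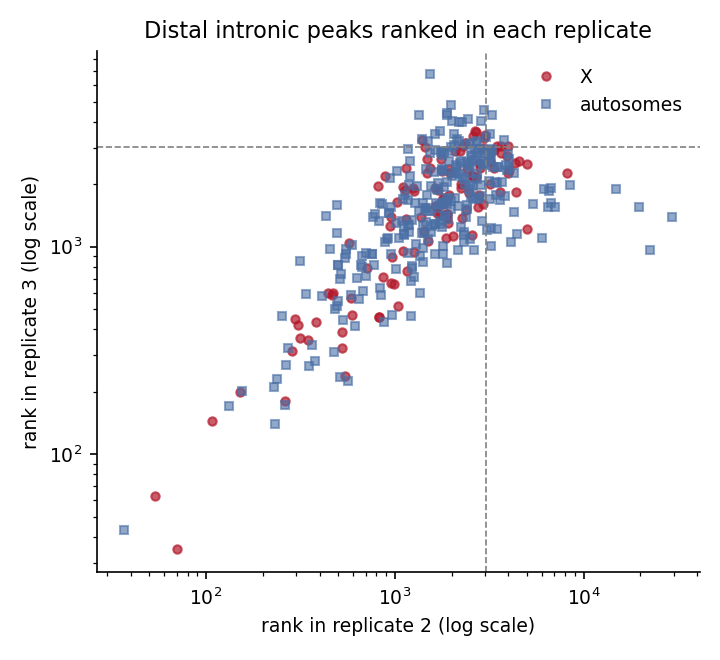
Rank of each of the 390 distal intronic peaks among the regions of replicate 2 (horizontal) and replicate 3 (vertical), both on log scales, with peaks on X as circles and on the autosomes as squares and dashed lines at rank 3033. The peaks follow the diagonal to rank 3033, and a few autosomal ones lie far to the right, the farthest at rank 29512 in replicate 2.

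Listed regions in distal intronic sequence passed at a lower share than the others. This sequence makes up 41.4 Mb, or 30.9% of the arms, and held 9.42 distal intronic peaks per Mb, against 28.6 other IDR peaks per Mb of the remaining sequence. The pooled list holds 6701 distal intronic regions, of which 5.82% passed (5.27 to 6.41), against 11.3% of the other 23299 (10.9 to 11.8). Over all listed regions 10.1% passed, the background for this count. Replicate 2 gave 5.86% against 11.4%, and replicate 3 gave 5.87% against 11.3%. Listed intronic regions within 2000 bp of a start passed in 13.9% (13.1 to 14.8) and intergenic ones more than 2000 bp from a start in 4.59% (3.84 to 5.44). The near and the far intronic regions thus stood on opposite sides of the background.

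The share that passed followed the base composition. GC content within 50 bp of the summit had a median of 33.7% in distal intronic peaks, 36.6% in the other IDR peaks and 41.6% in the 6311 distal intronic regions under the threshold, of which 83 overlapped an IDR peak by at least 1 bp. Promoter peaks, within 500 bp of a start, had 38.6%, and distal intronic sequence as a whole 40.04%. In bands of GC content chosen after seeing these values, 13.6% of 858 distal intronic regions below 30% GC passed, 10.6% of 993 from 30 to 35%, 7.17% of 1214 from 35 to 40% and 2.23% of 3636 at 40% or more. In the same bands the other listed regions passed in 26.6%, 21.9%, 15.9% and 6.57%. Distal intronic regions were thus below the others in each band. The part of GC content in the share that passed was not tested further.

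Density fell with distance from a transcript start. Between 2000 and 3000 bp there were 97 peaks, or 18.2 per Mb of sequence at that distance (14.7 to 22.2). From 3000 to 5000 bp there were 118 (15.2 per Mb), from 5000 to 10000 bp 111 (10.03 per Mb), from 10000 to 20000 bp 42 (4.90 per Mb), and farther out 22 (2.54 per Mb, 1.59 to 3.85). Replicate 2 gave 19.9 per Mb in the nearest bin and 2.31 in the farthest, and replicate 3 gave 16.9 and 2.08. Listed regions also thinned out, with 246 per Mb in the nearest bin and 53.2 in the farthest, while the share of them that passed was 7.39% (6.03 to 8.94), 7.15%, 5.41%, 3.42% (2.48 to 4.60) and 4.78% (3.02 to 7.15) over the 5 bins, lowest between 10000 and 20000 bp.

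The median distance was 4621 bp for distal intronic peaks and 5724 bp for distal intronic regions under the threshold. Just past the limit were peaks in the chromatin gene tna at 2003 bp, CG3764 at 2009 bp and mtgo at 2015 bp. Just within it were CG43867 at 1975 bp, the fatty acid synthase gene FASN1 at 1952 bp and IP3K2 at 1950 bp. The farthest from any start was in hth, the gene of a homeodomain cofactor of Hox proteins, at 49848 bp, followed by mamo at 42331 bp and Snoo at 41921 bp.

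The X chromosome held more distal intronic peaks per unit of sequence than the autosomes. On X there were 113, or 14.1 per Mb of distal intronic sequence (11.6 to 17.0), and on the autosomes 277, or 8.29 per Mb (7.35 to 9.33). Replicate 2 alone gave 13.9 per Mb on X against 8.92 on the autosomes, and replicate 3 gave 14.7 against 8.32. The ratio of X to autosomes was 1.70 in the IDR peaks, 1.55 in replicate 2 and 1.77 in replicate 3, with a replicate mean of 1.66 ± 0.15 (SD, n = 2). Among the autosomal arms 2L had 10.1 per Mb, 3L 9.65, 2R 7.71 and 3R 6.95, all lower values than on X. The intervals of 2L (7.84 to 12.9) and 3L (7.63 to 12.04) overlap that of X, and those of 2R (5.81 to 10.04) and 3R (5.49 to 8.68) do not. Chromosome 4 had 0 in 0.445 Mb of such sequence, which allows up to 6.74 per Mb.

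**Figure D2:**
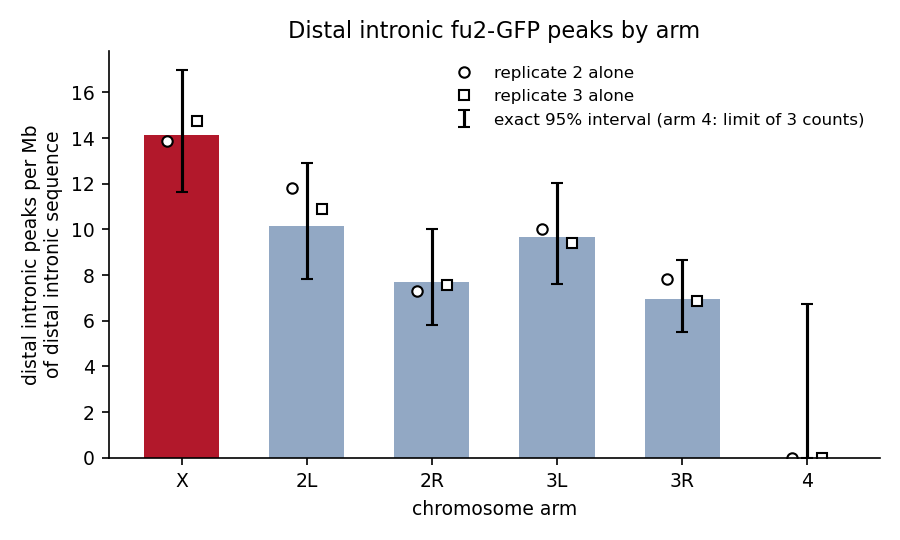
Distal intronic peaks per Mb of distal intronic sequence (vertical) on each chromosome arm (horizontal). Bars show the IDR peaks with exact 95% intervals (for chromosome 4, with 0 peaks, the limit of 3 counts), circles replicate 2 alone and squares replicate 3 alone, and X stands at 14.1 per Mb with both replicates above every autosomal value.

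The pooled list held 166 distal intronic regions per Mb on X and 161 on the autosomes, a ratio of 1.03. The share that passed was 8.52% on X (7.07 to 10.2) and 5.15% on the autosomes (4.58 to 5.78). Signal values of those that passed had a median of 92.7 on X and 91.4 on the autosomes. X held 19 of the 50 strongest and 11 of the 25 strongest, against 29.0% of all 390. The median GC content was 33.7% on both. In the GC bands the share that passed was 14.2% on X against 13.5% on the autosomes below 30% GC, 13.9% against 9.48% from 30 to 35%, 11.2% (7.60 to 15.6) against 6.08% (4.65 to 7.79) from 35 to 40%, and 3.15% against 2.04% at 40% or more. It was higher on X in all 4 bands, and the intervals overlapped in each, least from 35 to 40% GC.

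The difference was not seen at transcript starts. Within 500 bp of a start the ratio of X to autosomes in IDR peaks per Mb was 0.92 (0.89 in replicate 2, 0.94 in replicate 3), and for intronic summits 501 to 2000 bp away it was 1.38 (1.45 and 1.28). Intergenic peaks more than 2000 bp from a start had a ratio of 0.86, from 16 peaks on X and 110 on the autosomes, with 0.71 in replicate 2 and 1.19 in replicate 3. Among distal intronic peaks X had 29.4 per Mb and the autosomes 15.4 between 2000 and 3000 bp, 22.1 and 13.4 to 5000 bp, 11.6 and 9.64 to 10000 bp, 7.37 and 4.26 to 20000 bp, and 5.91 and 1.92 beyond. X was higher in all 5 bins, though the last held 8 peaks on X and 14 on the autosomes. Without the 24 genes that hold 3 or more of these peaks, X still had 10.7 per Mb and the autosomes 6.83. The X comparison was chosen after its values were seen.

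**Figure D3:**
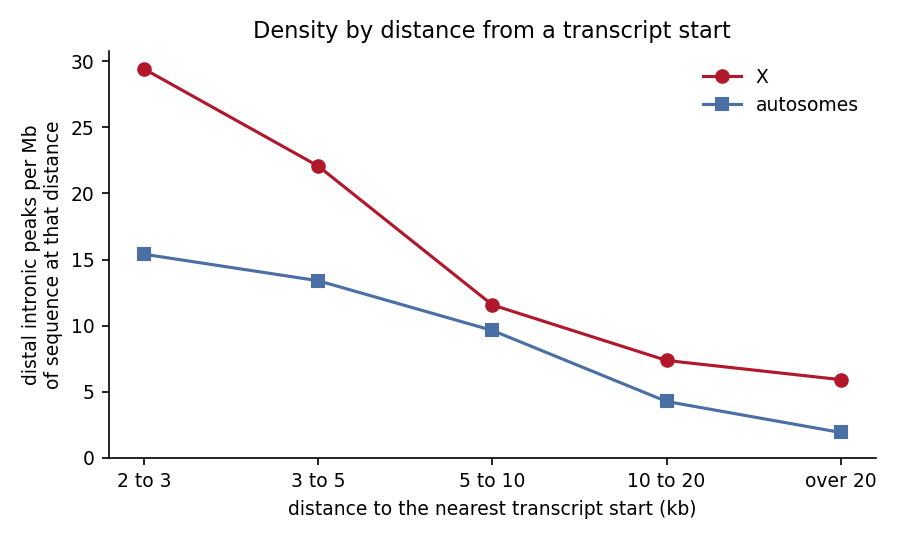
Distal intronic peaks per Mb of distal intronic sequence (vertical) by distance from the nearest transcript start (horizontal), with X as circles and the autosomes as squares. X lies above the autosomes in all 5 bins, at 29.4 against 15.4 per Mb in the nearest.

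First introns held more of the peaks than their share of sequence. The first intron of the Ensembl canonical transcript contained 166 of the 390 (42.6%, 37.6 to 47.6), against 32.9% of the distal intronic regions under the threshold and 23.4% of distal intronic sequence. Replicate 2 alone gave 42.1% and replicate 3 gave 42.2%. The second intron held 111, and 40 lay in no intron of the canonical transcript, as at Tlk and mnb. First introns were the denser at each distance. They had 22.9 peaks per Mb against 13.2 in other introns up to 5000 bp from a start, 16.6 against 7.65 from 5000 to 10000 bp, and 7.81 against 3.04 beyond. In first introns X had 26.1 per Mb and the autosomes 15.2, and in other introns X had 10.7 and the autosomes 6.16. In first introns from 5000 to 10000 bp, however, X had 15.8 per Mb, from 9 peaks, and the autosomes 16.7.

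The introns were long. Where the canonical transcript gave an intron (350 peaks), its median length was 14525 bp. The median span of the host genes was 31.0 kb, against 9.06 kb for the 3952 protein coding genes with any distal intronic sequence. Long genes hold more sequence that fits the position rule, and the host is the longest protein coding gene over the summit, if any. Long introns and long hosts thus follow in part from these rules. The nearest start belonged to the host gene for 264 peaks (67.7%), and 25 lay within 2 or more genes. None of the 390 summits lay in an annotated transposable element, which allows a share of up to 0.769%, while 32 of the 6311 regions under the threshold did (0.507%) and such elements make up 8.33% of the sequence. How reads from repeats were treated is not stated in the labels or manifests.

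The 390 peaks lay in 263 host genes, the host being the protein coding gene of longest span over the summit or, with none, the longest other gene. Of these 258 were protein coding and 5 were non-coding RNA genes, so 6.53% of the 3952 protein coding genes with distal intronic sequence held 1 or more. A single peak was found in 174 hosts, 2 in 65 and 3 or more in 24, which together held 86. Within 5000 bp of another lay 111 peaks (28.5%, 24.0 to 33.2), and 7 pairs of neighbours overlapped, so they are not all separate sites. At Tlk the peaks of 159.7 and 70.1 overlap and match the same region in both replicates.

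Raf and sbb held 6 each. In Raf they lay at 2.3, 3.7, 5.2, 6.8, 8.6 and 11.1 kb from the 5′ end of the gene with signal values of 469.6, 66.3, 206, 154, 266 and 73.6. All 6 were in the second intron, toward the 5′ end of a gene of 48.4 kb. The weakest, at 3.7 kb, ranked 8121 in replicate 2 and 2257 in replicate 3, and the other 5 ranked 2877 or better in both. In sbb, a corepressor gene on 2R, the 6 spread over 46.6 kb with 74.4 to 122. Hr4 held 5 between 88.1 and 222, and the forkhead gene CHES-1-like held 4 within 7.45 kb of distal intronic sequence, with 178, 172, 94.1 and 70.0. The cell cycle and chromatin gene tara, the GATA cofactor gene ush, the palmitoyltransferase gene Zdhhc8, the nuclear receptor gene Eip75B and the integrin gene mew also held 4 each. In tara and in Eip75B a pair of these peaks overlapped. Those with 3 were Tlk, kirre, CG32264, Evi5, CG5151, drongo, fz, apt, Snoo, Kdm2, shep, RapGAP1, tna, shn and mtgo. The histone demethylase gene Kdm2 held its 3 in 3.01 kb of such sequence, and kirre its 3 in 288 kb. Of the 24 genes 8 are on X, as are 72 of all 263 hosts.

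**Figure D4:**
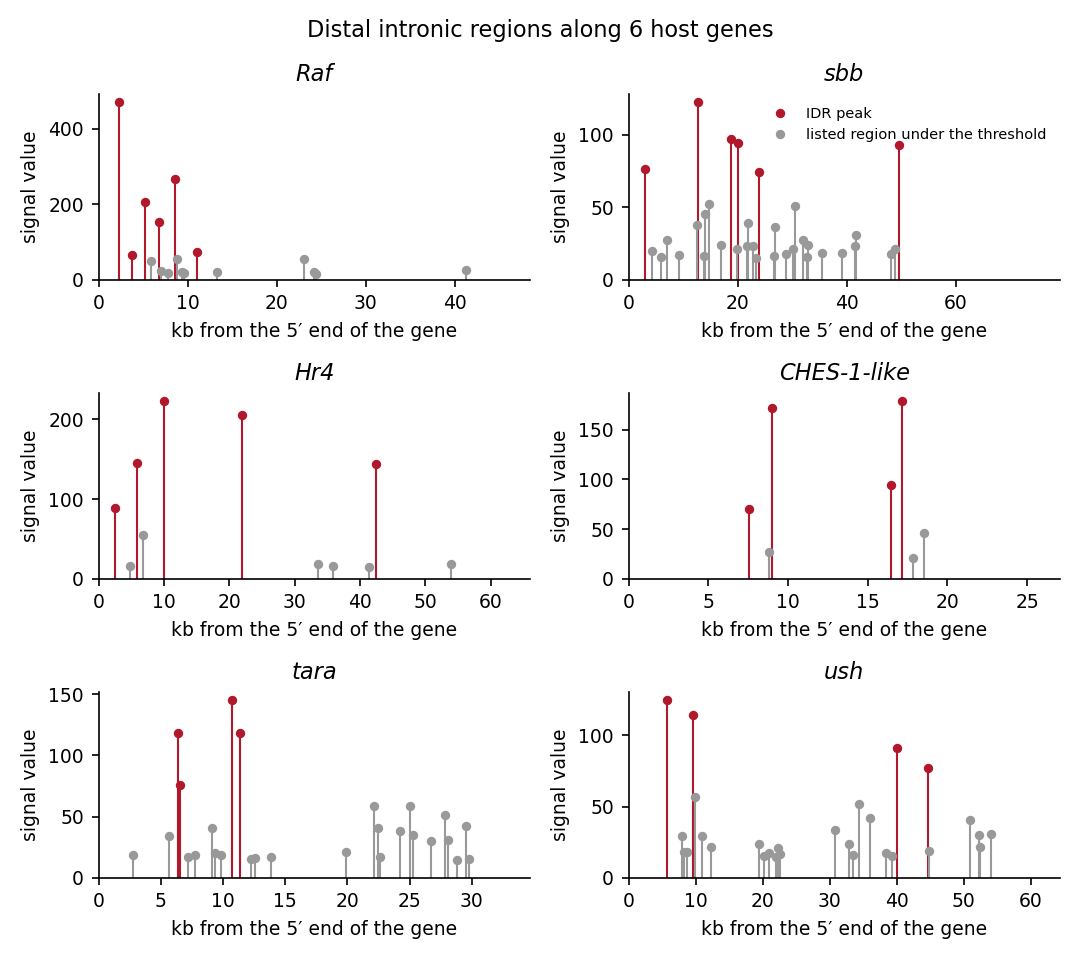
Signal value (vertical) of the distal intronic regions along 6 host genes, by distance from the 5′ end of the gene in kb (horizontal), with IDR peaks in red and listed regions under the threshold in grey. The 6 peaks of Raf lie between 2.3 and 11.1 kb and those of sbb are spread over 46.6 kb.

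Host genes also had promoter peaks more often than other genes. Of the 258 protein coding hosts 82 had an IDR peak within 500 bp of a start (31.8%, 26.1 to 37.8), against 795 of the 3694 genes with distal intronic sequence and no distal intronic peak (21.5%, 20.2 to 22.9). Over all 3952 genes the share was 22.2%. Replicate 2 gave 30.6% of hosts against 21.5% of the other genes, and replicate 3 gave 33.6% against 20.9%. Genes with a listed distal intronic region that did not pass had 21.5% (19.3 to 23.9), the same as the rest. The part of gene length, which also differed (above), was not tested. Of the 24 genes with 3 or more distal intronic peaks 11 had a promoter peak.

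The hosts were read by 9 lists of genes with roles in development and gene regulation, in which 457 of 460 entries matched a gene on the arms. A gene counts here if it has distal intronic sequence, and the background is the 6.53% of protein coding genes above, with 9.50 peaks per Mb. Genes of the ecdysone response, the steroid hormone signal of moulting and metamorphosis, and of nuclear receptors led with 8 hosts of 19 (42.1%, 20.3 to 66.5) and 38.5 peaks per Mb. Hr3 had a highest signal value of 304, Hr4 of 222, the cyclin-dependent kinase gene Eip63E of 162 and Eip75B of 97.6. Also in this list were E23, Hr96, ftz-f1 and Eip74EF, from 63.8 to 84.5. Of the 19 peaks in the list 5 lay in Hr4 and 4 in Eip75B, so its density leans on those genes. Replicate 2 gave 9 hosts and replicate 3 gave 7.

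Signalling receptors and effectors had 16 hosts of 52 (30.8%, 18.7 to 45.1), at 23.5 per Mb, with 16 in replicate 2 and 15 in replicate 3. The glypican gene dlp had 165, the Wnt and polarity receptor gene fz 159.8, the receptor gene N (Notch) 144 and the cAMP phosphodiesterase gene dnc 113. Among the others the ligand gene dpp (62.9), the Hedgehog receptor gene ptc (71.9) and the Hippo pathway genes wts (79.0), kibra (96.0) and ex (107) held weaker peaks. Developmental transcription factor genes had 13 hosts of 50 (26.0%, 14.6 to 40.3), at 18.7 per Mb, with 14 and 13 in replicates 2 and 3. The ETS repressor gene aop (181), the ETS activator gene pnt (134), ush (125) and the Hox gene Antp (114) were the strongest, and Ubx (63.5) was the weakest.

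Genes of insulin, growth and metabolism had 8 hosts of 32 (25%, 11.5 to 43.4), led by REPTOR (207), the hypoxia factor gene sima (163), the cGMP-dependent kinase gene for (99.7) and the Myc antagonist gene Mnt (92.1), and Myc itself held 1 of 74.5. The list had 28.3 peaks per Mb, and both replicates gave 9 hosts. Chromatin regulators had 7 hosts of 35 (20%, 8.44 to 36.9) and the highest density of the lists, 51.3 per Mb, over 0.273 Mb of distal intronic sequence. Of the 14 peaks in this list 6 lay in sbb, in 46.8 kb of such sequence, so its rank among the lists leans on that gene. Mi-2 (293), trx (269), JIL-1 (222) and sbb (122) led, followed by ttk (104) and the Polycomb group genes ph-p (82.5) and Psc (73.0). Both replicates gave 7.

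The other 4 lists had fewer peaks per Mb than the background, but no intervals were made for densities by list. Muscle and cytoskeleton genes held only 5 peaks and RNA-binding protein genes 9, so whether those lists lie below the background is uncertain. Ion channel and neurotransmission genes had 1 host of 52 (1.92%, 0.0487 to 10.3), the channel gene Ih with 65.9, and 0.644 peaks per Mb over 1.55 Mb. Both replicates gave 2. Neuronal adhesion and axon guidance genes had 7 of 53 (13.2%, 5.48 to 25.3) but 4.37 per Mb, and were led by kirre (211), haf (123), side (96.9) and DIP-alpha (94.2). Muscle and cytoskeleton genes had 4 of 43 (9.30%, 2.59 to 22.1) and 7.53 per Mb, with scrib (111), Myo10A (102), how (89.6) and mbl (67.8), and replicate 3 gave 7 where replicate 2 gave 4. RNA-binding protein genes had 6 of 27 (22.2%, 8.62 to 42.3) and 6.24 per Mb, with shep (124), brat (90.8), how (89.6) and pum (69.2). The lists were made with earlier results of these data known and 6 symbols are in more than 1 list, so the counts are descriptions.

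Words of promoters were nearly absent from distal intronic peaks. Within 50 bp of the summit, with both strands searched, the DRE (TATCGATA), a site of the factors DREF and BEAF-32, was found in 0 of 390, which allows up to 0.769%, against 3.44% of the other IDR peaks and 1.15% of all listed regions. CAACACTG, an 8-mer frequent among all IDR peaks, was in 2 (0.513%, 0.0622 to 1.84) against 4.35% of other peaks, with 0.883% of all listed regions. CAGCCCTG, another such 8-mer, was in 1 (0.256%) against 2.19%, with 0.517% of all listed regions. Both 8-mers were taken up as words of all IDR peaks, most of which are the other peaks. For them a higher share in other peaks is thus partly built in. Core promoter motif 7 was in 0.513% as CAGCNCTA and in 0.513% as CATCNCTA, against 1.74% and 3.37% of other peaks and 0.977% and 1.27% of all listed regions. The M1BP core GGTCACAC was in 0.256% against 1.85%, with 1.01% of all listed regions. In distal intronic regions under the threshold these 6 words were in 0.0475% to 0.634%. The distal intronic peaks thus stood near the weaker regions of the same sequence class and, in share, below the other peaks. Intervals overlapped those of other peaks, however, at CAGCNCTA (0.0622 to 1.84 against 1.28 to 2.31). They also did at the M1BP core (0.00649 to 1.42 against 1.37 to 2.44). Promoter peaks, which are most of the other peaks, carried CAACACTG in 5.74% and the DRE in 4.60%. Intronic peaks within 2000 bp of a start carried them in 1.60% and 0.614%. In those peaks CAGCCCTG was in 1.11%, CAGCNCTA in 1.11%, CATCNCTA in 1.47% and the M1BP core in 0.246%. Low shares of these words were thus not particular to the distal intronic peaks.

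Other words were more frequent in distal intronic peaks than in the regions under the threshold. The GATA site AGATAA was in 9.23% (6.55 to 12.6), against 5.71% of the other IDR peaks and 6.12% of distal intronic regions under the threshold, with 5.20% of all listed regions, and in 10.3% and 9.09% of the peaks of replicates 2 and 3. The TATA box TATAAA was in 19.5% (15.7 to 23.8), against 15.1% and 11.1%, with 9.89% of all listed regions. Within the bands of GC content, however, the TATA box was in 30.8% of distal intronic peaks against 30.1% of regions under the threshold below 30% GC and 20% against 20.2% from 30 to 35%, and the GATA site in 9.40% against 9.72% and 12.4% against 9.12%. In each of the 4 bands the share of regions under the threshold lay within the interval of the peaks for both words.

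The AP-1 site TGANTCA, bound by Jun and Fos dimers, was in 22 distal intronic peaks (5.64%, 3.57 to 8.42), against 2.38% of other peaks and 3.06% of regions under the threshold, with 2.28% of all listed regions. In replicates 2 and 3 it was in 3.91% and 4.04%, lower than in the IDR peaks. By GC band it was in 5.98% against 3.64% below 30% GC, 8.57% against 3.83% from 30 to 35%, 5.75% against 3.19% from 35 to 40%, and 1.23% against 2.70% above, with intervals that overlap in each band. The CA repeat CACACACA was in 0.513% against 1.32% of other peaks and 3.64% of regions under the threshold, with 2.69% of all listed regions, and in 0.733% and 1.77% of the peaks of replicates 2 and 3. GAGAGAG was in 0.256% against 1.29% and 1.85%, with 1.74% of all listed regions, and in 0.978% and 0.505% in the replicates. The run AAAAAAAA was in 8.72% against 6.39% and 7.91%, with 5.22% of all listed regions. Intervals of the distal intronic peaks reached or overlapped those of both other sets for the Zelda, Hox-type, CRE, E-box, Mef2, Su(H), Pho, Runt and CTCF words. The same held for the GATA site, the run AAAAAAAA, CAGCNCTA and the M1BP core. These words say only which letters are present.

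**Figure D5:**
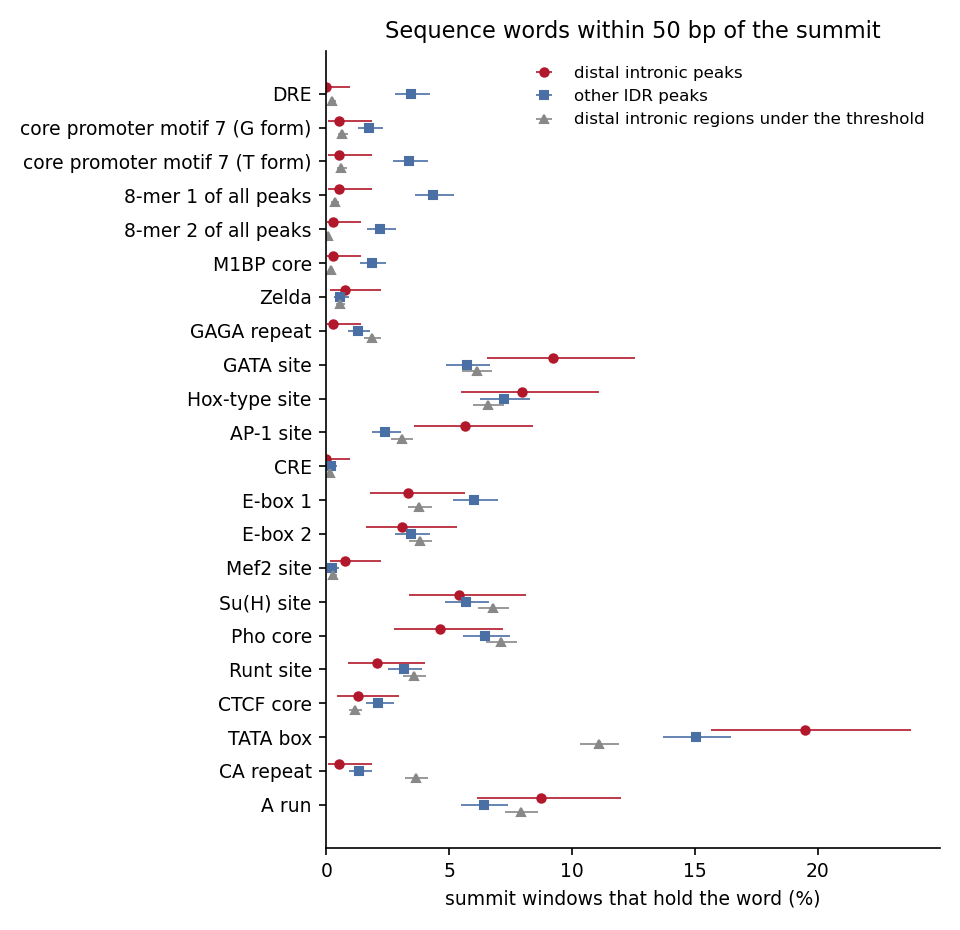
Share of windows of 50 bp each side of the summit that hold each word, in percent (horizontal), for 22 words (vertical) in distal intronic peaks (circles), other IDR peaks (squares) and distal intronic regions under the threshold (triangles), with exact 95% intervals; 8-mer 1 is CAACACTG, 8-mer 2 is CAGCCCTG, E-box 1 is CAGCTG and E-box 2 is CAGGTG. The DRE is at 0 in distal intronic peaks and at 3.44% in other peaks, while the AP-1 site is at 5.64% and 2.38%.

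Further strong distal intronic peaks with an AP-1 site, beside that of Pits shown above, include those of Dad, drongo and osp. They were chosen for display after the values of the word were seen. Capitals mark AP-1 sites, the word CAACACTG at Dad and a Pho core at osp, on the plus strand of dm6 from the same RefSeq genome.
Dad, chr3R:17065078-17065178: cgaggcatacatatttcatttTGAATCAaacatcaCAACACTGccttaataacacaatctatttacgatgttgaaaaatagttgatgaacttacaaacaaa
drongo, chr2L:845489-845589: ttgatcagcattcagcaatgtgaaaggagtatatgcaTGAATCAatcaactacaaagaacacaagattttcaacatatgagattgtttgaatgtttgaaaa
osp, chr2L:14685765-14685865: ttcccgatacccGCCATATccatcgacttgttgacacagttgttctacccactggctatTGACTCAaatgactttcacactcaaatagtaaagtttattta

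Dad is on 3R and its summit, 7547 bp from a start in the fifth intron, had a signal value of 223 and is the stronger of the only 2 distal intronic peaks with CAACACTG. The peak of drongo, the gene of an Arf GTPase-activating protein, had 163, and that of osp, within which other genes are nested, had 142.

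The 8-mers that led in the distal intronic peaks of 2 arms were less frequent on the other arms. Choosing them for their difference on those 2 arms favours such a drop by itself. The 10 leading 8-mers on the arms of chromosome 2, chosen against distal intronic regions under the threshold, were rich in A and T. The first, TTTAAAAA, was in 7.44% of the 121 peaks there and 1.83% of 2238 regions under the threshold. On 3L, 3R and X it was in 2.97% of 269 peaks (1.29 to 5.78) and 2.52% of 4047 regions. TATATGCA had 5.79% against 0.626% on chromosome 2 and 0.372% against 0.544% on the other arms. The other 8 words had 1.49% to 7.81% there, and in no case did the regions under the threshold lie outside the interval of the peaks.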

How the data were processed

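Peak lists in narrowPeak format were used for the 2 replicates, for both together and for the IDR peaks, all on dm6. The authors made the signal value and the −log10 of the q-value of each deposited region with a peak caller that the labels do not name, and the −log10 value is at its maximum, 3.95, in every IDR peak. The offset of the summit is also the authors'. Per the file manifests, each replicate list derives from its own alignment plus 1 further input that they do not describe. Chromatin had been sonicated to 200 to 800 bp, per the labels. Lists on dm3 were not used here.

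Summits were placed against Ensembl release 115 (BDGP 6.54) without transposable elements. Each summit was given 1 host gene. Densities divide by all bases that meet the position rule. Shares have exact Clopper-Pearson 95% intervals, and densities, where an interval is given, exact Poisson ones. A count of 0 was given a limit of 3 counts. Depth is unknown, so intervals cover counting only. Members and lists were chosen with earlier results of these data known. The genes named are the hosts of the 25 strongest peaks, hosts of 3 or more, the peaks nearest to the limits and up to 4 hosts per list by signal value, and other genes of a list were named after their values were seen. No columns of other samples were met. Alternatives were other distances, hosts, windows, thresholds and single replicates. Python 3.11.15, numpy 2.4.6, pandas 2.3.3, scipy 1.17.1 and matplotlib 3.10.9 were used, and the code was tested on simulated data.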

Additional observations from a re-analysis of the deposited data

How the results depend on the processing

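With the distance set to 1000 bp there were 589 peaks, 12.2 per Mb, with 6.71% of listed regions passing and 42 genes that held 3 or more, and with 5000 bp there were 175 peaks, 6.19 per Mb and 4.68%. With protein coding genes alone the values were 9.91 per Mb and 5.98%. The stronger part of the IDR peaks (above the median) held 166 peaks, a median GC content of 32.7%, 43.4% in first introns and 3 genes with 3 or more. There 19.4% of all hosts had a promoter peak of that strength. Over all 263 hosts the share with a promoter peak was 31.6%, and it was 18.6% with a promoter distance of 200 bp and 39.5% with 1000 bp. In share, protein coding hosts stayed above other genes in each case. The values were 19.1% against 11.6% in the stronger part, 18.99% against 14.8% at 200 bp and 39.9% against 25.1% at 1000 bp. No intervals were made for these shares, so whether hosts differ from other genes at 200 bp is uncertain. GC content over 100 bp each side was 36.3%, and the transcript with the most exons put 39.2% in first introns. Overlap with the strongest regions of both replicates was 65.1% where 0.5 of both regions had to overlap and 69.7% with summits within 100 bp. Within 2000 bp of another peak lay 19.2%, and within 10000 bp 34.9%. Leaving out 1 replicate gave 396 to 409 peaks, 9.57 to 9.88 per Mb, 5.86 to 5.87% passing, GC of 33.7 to 34.7%, 42.1 to 42.2% in first introns, 30.4 to 33.3% of hosts with a promoter peak, 25 to 30 genes with 3 or more, and a ratio of X to autosomes of 1.55 to 1.77. Under the other settings, chosen after seeing the data, that ratio was 1.65 at 1000 bp, 1.57 at 5000 bp, 1.78 with protein coding genes, 1.60 in the stronger part and 1.57 without the hosts of 3 or more. Of 36 gene list counts 28 stayed within 1.5 times, and 38 of 66 word shares stayed within their interval. A wider or narrower window changes word shares by construction, and the cause of the other moves was not tested. No paired analysis was possible because there is 1 group. Depth is unknown, so a region under the threshold is not shown to be unbound.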
